A study of Homo sapiens with 8 samples.

Results

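Binding of both RUNX1 phosphosite mutants, RUNX1-4A and RUNX1-4D, was set against that of wild-type RUNX1 (WT) by CUT&RUN, to ask which genomic regions move the same way in both mutants. The comparison used 6 of the 8 samples of the series: the 4 mutant peak lists and the 2 WT peak lists. The other 2 samples came from cells carrying an empty vector, which the series design names as the background for peak calling, and no peak list of theirs was analysed here. All samples were HEL cells, a human erythroleukemia line with erythroid and megakaryocytic features, transduced with HA-tagged WT RUNX1, HA-tagged 4A, HA-tagged 4D or the empty vector and kept in 2 µg/ml puromycin. Each line had 2 biological replicates. By the usual naming, 4A replaces serine or threonine residues with alanine, which cannot be phosphorylated, and 4D replaces them with aspartate, which resembles a phosphorylated residue. The labels do not give the positions. Each sample had 500000 cells permeabilized with 0.01% digitonin, and libraries were amplified for 12 PCR cycles. The antibody read the tag, so any RUNX1 made by HEL cells themselves was not measured. Peak lists hold no transcripts, so markers of the cell type could not be checked.

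RUNX1 is the DNA-binding subunit of core binding factor, which it forms with CBFB, and it is required for definitive blood formation and for the maturation of megakaryocytes, the cells that release platelets. It is phosphorylated on serine and threonine residues by several kinases, and the title of the series ties this modification to the choice between the megakaryocytic and the erythroid fate. In CUT&RUN, a nuclease tethered by an antibody releases the DNA at bound sites for sequencing.

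Lists were comparable only within a replicate number. On chromosomes 1 to 22 and X, the WT, 4A and 4D lists of replicate 1 held 6752, 6256 and 5346 peaks, and those of replicate 2 held 25845, 24203 and 21076. Within each number the lists were therefore cut to the length of the shortest, 5346 and 21076 peaks, by the authors' −log10 q, a peak's significance over background. Cutting removed most from WT: the weakest WT peak kept had a −log10 q of 5.32 in replicate 1 and 4.34 in replicate 2. The weakest 4A peaks kept had 3.52 and 3.12, and the weakest 4D peaks 1.31 in both replicates. The first peaks left out of the WT and 4A lists had the same values as the last kept. Peaks that overlapped by at least 1 bp were merged into 28667 regions. The lists give no read depth, and a region without a peak in a list may still have been bound in that library.

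Few regions separated both mutants from WT in both replicate numbers. WT and neither mutant held 869 of the 7938 regions of replicate 1 (10.9%) and 2380 of the 28332 of replicate 2 (8.4%), but only 8 of 28667 in both (0.0279%). Both mutants and not WT held 396 regions in replicate 1 (4.99%), 1095 in replicate 2 (3.86%) and 5 in both (0.0174%). Unequal list length limits the counts in both numbers, since 20729 of the 28332 regions of replicate 2 were in no replicate 1 list. Those 20729 include 2334 of the 2380 held by WT alone and 992 of the 1095 held by both mutants. All 3 lists shared 2993 regions (37.7%) in replicate 1 and 14234 (50.2%) in replicate 2. The smallest class in each number was the one shared by both mutants without WT. It lay below the pairings of WT with 4D (753 and 2056 regions) and of WT with 4A (628 and 2208).

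The mutants were less alike than either was to WT. The Jaccard index, shared regions over regions in either list, was 0.479 between 4A and 4D in replicate 1, against 0.527 for WT and 4A and 0.559 for WT and 4D. In replicate 2 it was 0.591, against 0.653 and 0.648. The exact permutation test exchanged the WT label among the 3 lists of each number, which gives 9 arrangements and cannot go below p = 0.111. With WT as labelled, the sum over numbers of regions held by WT alone was 3249, the lowest of the 9 arrangements, whose mean was 3969 (two-sided exact p = 0.111). The sum of regions held by both mutants and not WT was 1491, again the lowest, against a mean of 2379 (two-sided exact p = 0.111). For regions seen in both numbers, the 8 held by WT alone had a two-sided exact p = 0.333 (range over arrangements 8 to 35), and the 5 held by both mutants had p = 0.556 (range 5 to 17, exact permutation test). The design cannot reach 0.05. The WT list was also the one cut most in each number, and the part of this in the order was not tested.

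**Figure D1:**
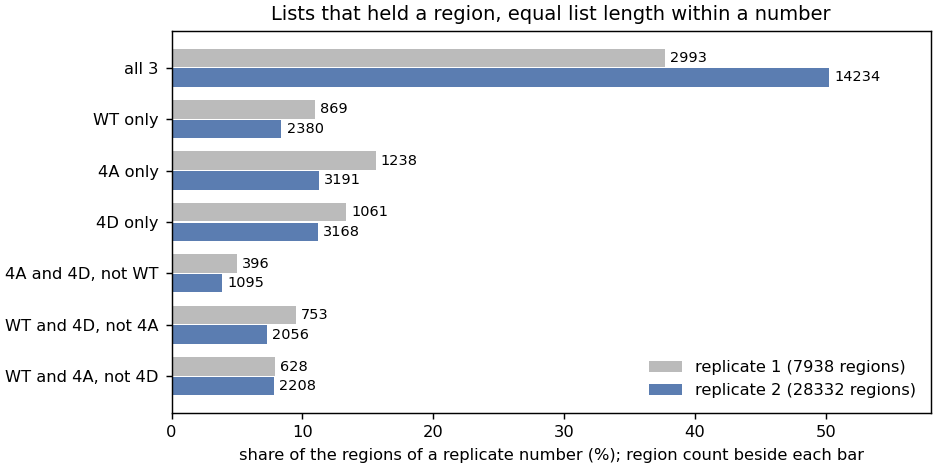
Share of the regions of each replicate number (horizontal axis, percent) held by each combination of the 3 equal lists; grey bars are replicate 1, blue bars replicate 2, and the number beside a bar is its region count. Regions held by 4A and 4D without WT form the shortest bar in both numbers (396 and 1095).

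To show the sequence at or beside regions that stood apart in the same direction in both numbers, 5 promoters are printed. NBEAL1 was held by WT alone, INPP5K and PRMT1 ranked lower in both mutants, and MVK and TMEM19 ranked higher in both. Each is the 250 bases before the gene's start in RefSeq's GRCh38.p14 annotation, 5′ to 3′ along the gene: NBEAL1 at chr2:203014625-203014874, plus strand; INPP5K at chr17:1516613-1516862, minus strand; PRMT1 at chr19:49677021-49677270, plus strand; MVK at chr12:109573544-109573793, plus strand; TMEM19 at chr12:71685832-71686081, plus strand. Capitals mark the core letters read by RUNX proteins, searched as TGTGGT and TGCGGT and their complements ACCACA and ACCGCA.
NBEAL1: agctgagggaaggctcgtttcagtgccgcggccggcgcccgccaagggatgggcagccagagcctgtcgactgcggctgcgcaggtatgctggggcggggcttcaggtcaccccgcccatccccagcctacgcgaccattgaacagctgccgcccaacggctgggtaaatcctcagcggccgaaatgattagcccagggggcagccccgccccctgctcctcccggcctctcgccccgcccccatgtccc
INPP5K: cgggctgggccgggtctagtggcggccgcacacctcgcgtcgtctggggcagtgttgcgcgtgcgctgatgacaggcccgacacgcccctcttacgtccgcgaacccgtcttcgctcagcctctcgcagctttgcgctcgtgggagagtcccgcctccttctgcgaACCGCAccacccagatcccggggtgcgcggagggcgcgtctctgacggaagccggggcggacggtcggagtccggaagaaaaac
PRMT1: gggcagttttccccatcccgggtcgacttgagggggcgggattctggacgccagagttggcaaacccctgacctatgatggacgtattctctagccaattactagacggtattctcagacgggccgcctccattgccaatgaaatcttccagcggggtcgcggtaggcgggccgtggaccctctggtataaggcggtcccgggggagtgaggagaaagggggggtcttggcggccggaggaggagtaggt
MVK: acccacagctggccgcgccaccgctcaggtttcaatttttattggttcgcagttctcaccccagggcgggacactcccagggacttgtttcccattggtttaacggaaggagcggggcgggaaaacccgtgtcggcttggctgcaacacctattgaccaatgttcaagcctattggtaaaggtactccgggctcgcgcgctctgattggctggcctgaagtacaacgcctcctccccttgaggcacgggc
TMEM19: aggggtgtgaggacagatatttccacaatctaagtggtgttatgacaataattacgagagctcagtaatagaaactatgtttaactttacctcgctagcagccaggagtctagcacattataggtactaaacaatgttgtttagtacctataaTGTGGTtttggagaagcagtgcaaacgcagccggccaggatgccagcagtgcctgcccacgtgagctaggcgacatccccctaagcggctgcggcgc

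Of these 5, INPP5K holds ACCGCA, starting 84 bases before the gene's start, and TMEM19 holds TGTGGT, starting 97 bases before it. The TMEM19 match lies before the region itself, which overlaps only the last bases of the stretch printed. The other promoters shown hold none of these letters, which says nothing of the factor. Over all 15812 promoters matched, 2418 (15.3%) held at least 1 match. The 5 printed are not a fair sample. Among all promoters overlapping regions ranked higher in both mutants in both numbers, 1 of 7 (14.3%) held a match. For regions ranked lower it was 1 of 9 (11.1%). Among promoters overlapping regions held by all 3 lists the share was 23.8% (279 of 1170) in replicate 1 and 20.4% (800 of 3920) in replicate 2. Where WT alone held the region it was 17.0% (55 of 323) and 17.5% (39 of 223). Where both mutants and not WT held it, the share was 23.7% (22 of 93) in replicate 1 and 13.3% (37 of 279) in replicate 2, so the order of the last 2 classes was not the same in both numbers.

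The 8 regions held by WT and neither mutant in both numbers lay at genes of unrelated roles. The strongest lay inside EPM2A (chromosome 6, 145470940 to 145471117), which encodes laforin, a phosphatase of glycogen, 87.7 kb from the gene's nearer end. Its −log10 q was 19.5 in WT replicate 1 and 23.2 in WT replicate 2, and no mutant list had a peak there, weak peaks included. The NBEAL1 region (chromosome 2, 203014646 to 203014853) lay on the promoter printed above. NBEAL1 encodes a BEACH-domain protein related to NBEAL2, which platelets need for their alpha granules. WT peaks there reached a −log10 q of 8.80 in replicate 1 and 8.86 in replicate 2, with summits 138 and 142 bases before the gene's start, and no mutant list had a peak.

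Regions 6.93 kb outside SNAP47 (chromosome 1, 227788044 to 227788262), a SNARE protein, and 81.1 kb outside MTSS1 on chromosome 8, an actin and membrane scaffold, followed. At SNAP47 the WT peaks reached 11.9 and 11.0 on the −log10 q scale, with a 4A replicate 1 peak of 3.32 that fell below the length limit. The MTSS1 region had 9.98 and 9.25 in WT and no mutant peak. Inside HEXIM1 (chromosome 17, 45148674 to 45148879), an inhibitor of the elongation kinase P-TEFb, the WT values were 8.07 and 4.37, the second just above the limit of its list, and 4A replicate 2 had a peak of 2.65 below the limit.

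The remaining 3 were likewise close to the length limit in at least 1 WT list. The IGF1R region (chromosome 15, 98779794 to 98780018), inside the receptor gene of insulin-like growth factor 1, had 6.19 and 4.74 in WT and 2.14, below the limit, in 4A replicate 2. The region 27.6 kb from SOX13 (chromosome 1, 204045388 to 204045644), a transcription factor gene, had 5.66 and 4.61 in WT and no mutant peak. The BFSP1 region (chromosome 20, 17562828 to 17563333), inside the gene of a lens filament protein, had 5.66 and 11.8 in WT and 1.55, below the limit, in 4A replicate 2. Thus 4 of the 8, at EPM2A, MTSS1, NBEAL1 and SOX13, lacked a peak in every whole mutant list, a fact that rests on 4A, since the 4D lists were not shortened.

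Of the 5 regions held by both mutants and not WT in both numbers, the strongest by rank lay inside FBXL13 (chromosome 7, 102992956 to 102993297), a gene of an F-box protein, with −log10 q of 7.54 and 21.5 in the 4A replicates and 10.5 and 11.0 in the 4D replicates. No WT list had a peak there. The RCC1 region (chromosome 1, 28535203 to 28535652), in the gene of the nucleotide exchange factor of the RAN GTPase, had 9.21 and 4.23 in the 4A lists, and 3.54 and 2.45 in those of 4D. The ENAH region (chromosome 1, 225467312 to 225468017), 19.2 kb outside a gene of actin filament growth, had 4.12 and 6.48 in the 4A lists, and 2.91 and 4.10 in those of 4D. The RTN4 region (chromosome 2, 55048905 to 55049671), inside the gene of the reticulon Nogo, had 3.77 and 5.62 in the 4A lists, and 2.23 and 3.91 in those of 4D. WT lists had no peak in the regions at RCC1, ENAH or RTN4. The PTCHD1 region (chromosome X, 23381245 to 23381834), in a gene of the patched family, had 7.67 and 5.17 in the 4A lists, and 3.63 and 7.26 in those of 4D, and its WT peaks of 4.60 and 3.72 fell below the length limit. It is absent from WT only through the cutting of the lists. Both sets depend on list length: with all 6 lists at the length of the shortest, 35 regions were held by WT alone and 10 by both mutants alone in both numbers, and none of the 8 and the 5 named here was among them.

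**Figure D2:**
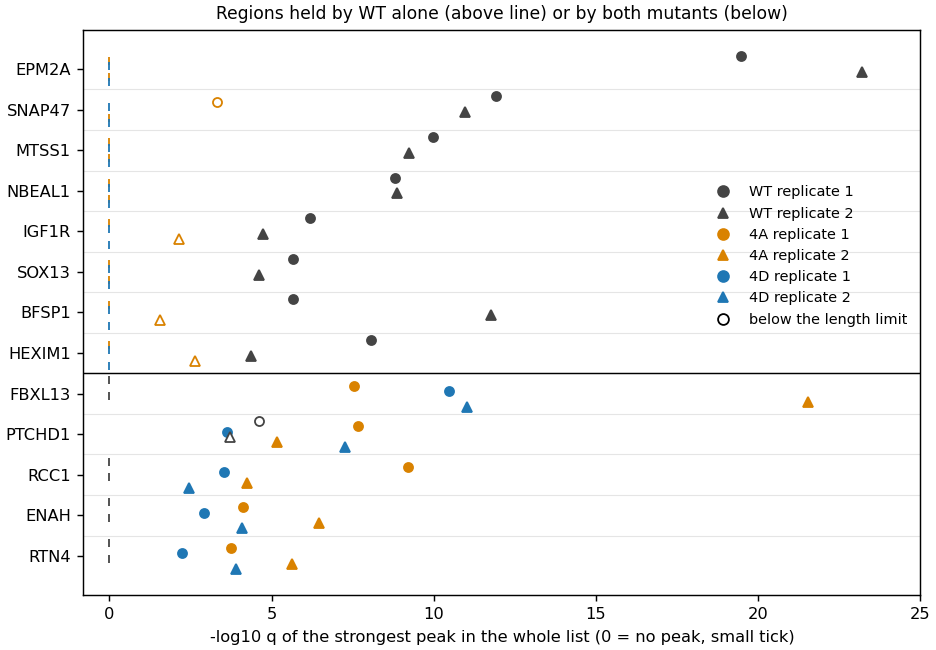
The −log10 q (horizontal axis) of the strongest peak in each library's whole list at the 8 regions held by WT alone and the 5 held by both mutants in both replicate numbers; circles are replicate 1, triangles replicate 2, open symbols lie below the length limit, and small ticks at 0 mean no peak. The EPM2A region reaches 19.5 and 23.2 in WT with no mutant peak, and at FBXL13 the mutant values of 7.54 to 21.5 stand without a WT peak.

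Most regions that stood apart in replicate 1 were held by all 3 lists in replicate 2, as were most regions of replicate 1. Over all 7938 regions of replicate 1, 6891 (86.8%) were held by all 3 lists in replicate 2. That total includes the 2993 regions held by all 3 lists in replicate 1, of which 2959 were so again. Of the 869 regions held by WT alone in replicate 1, 731 (84.1%) were, 8 were held again by WT alone and 16 by both mutants and not WT. Of the 396 held by both mutants alone, 354 (89.4%) were, 5 were held again by both mutants and 4 by WT alone. The like classes differed. Of regions held by a single mutant, all 3 replicate 2 lists held 839 of 1238 for 4A and 705 of 1061 for 4D. Of regions that WT shared with a single mutant, they held 595 of 628 for 4A and 708 of 753 for 4D. Replicate 1 lists were shorter, and 20729 of the 28332 regions of replicate 2 (73.2%) were in none of them. Of the 2380 held by WT alone in replicate 2, 2334 (98.1%) were in none, as were 992 (90.6%) of the 1095 held by both mutants. Regions that stood apart were also weak. The median of the lower percentile rank among the lists holding a region (100 is the strongest peak) was 22.2 and 16.0 for WT alone in replicates 1 and 2, and 20.2 and 14.3 for both mutants, against 50.7 and 51.8 for regions held by all 3 lists.

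The strongest regions that set WT apart in replicate 1, taken on whole lists, show the same. The region 236 kb outside TLL1 (chromosome 4, 166340344 to 166340831), a gene of a secreted metalloprotease, had a −log10 q of 38.9 in WT replicate 1 and no replicate 1 mutant peak, and in replicate 2 it had 35.6 in WT, 41.2 in 4A and 27.0 in 4D. Inside MYLK (chromosome 3, 123695770 to 123696639), the myosin light chain kinase gene, WT replicate 1 had 29.2 and the replicate 2 lists 64.4, 73.9 and 47.0. Regions at TRAPPC9 and LOC124900338 were likewise in all replicate 2 lists.

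In the other direction, the region 119 kb outside FUT8 (chromosome 14, 65237882 to 65238762), a gene of a fucosyltransferase, had 31.2 in 4A and 22.9 in 4D in replicate 1 with no WT peak. The replicate 2 values were 42.7, 61.4 and 23.7 for WT, 4A and 4D. Regions at RASSF5, SERP2 and COL16A1 followed, each with no WT peak in replicate 1 and a peak in all 3 lists of replicate 2.

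For replicate 2, the strongest region that WT held alone lay inside MAPKBP1 (chromosome 15, 41782922 to 41783272), a scaffold gene of JNK signalling, with a −log10 q of 43.3. Regions at ALG1L2, LRRC32, EEA1 and CCSER2 followed with 33.1, 32.7, 29.4 and 28.2, and none of the 5 had a peak in any replicate 1 list. The strongest region of both mutants lay inside MECOM (chromosome 3, 169467857 to 169468135), the gene of the stem cell transcription factor EVI1, with 25.8 in 4A and 15.9 in 4D and no peak in WT or in replicate 1. WT did have other peaks within 10 kb of MECOM in both numbers. The regions at PEX39, SNX5 and EXTL3 likewise had no replicate 1 peak. The CD2AP region had a −log10 q of 5.83 in WT replicate 1 and 1.49 in 4D replicate 1, so there the WT peak of replicate 1 ran against replicate 2.

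Ranks were then compared at the 2959 regions held by all 6 lists. A region's move is its percentile rank in a mutant list minus that in the WT list of the same number. Both mutants ranked at least 10 points higher than WT at 366 regions in replicate 1 (12.4%) and 115 in replicate 2 (3.89%), and at 14 in both (0.473%). Both ranked at least 10 points lower at 371 (12.5%) and 53 (1.79%), and at 8 in both (0.27%). By comparison, 10 regions were higher in replicate 1 and lower in replicate 2, and 26 the reverse. As a description across regions, the mean move in replicate 1 had a Pearson r of −0.0605 and a Spearman rho of −0.0308 with that in replicate 2. The moves had an SD of 18.0 points in replicate 1 and 7.42 in replicate 2. Exchanging the WT label gave a two-sided exact p = 0.444 for the 14 (range over the 9 arrangements 11 to 51) and p = 0.222 for the 8 (range 8 to 30, exact permutation test).

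**Figure D3:**
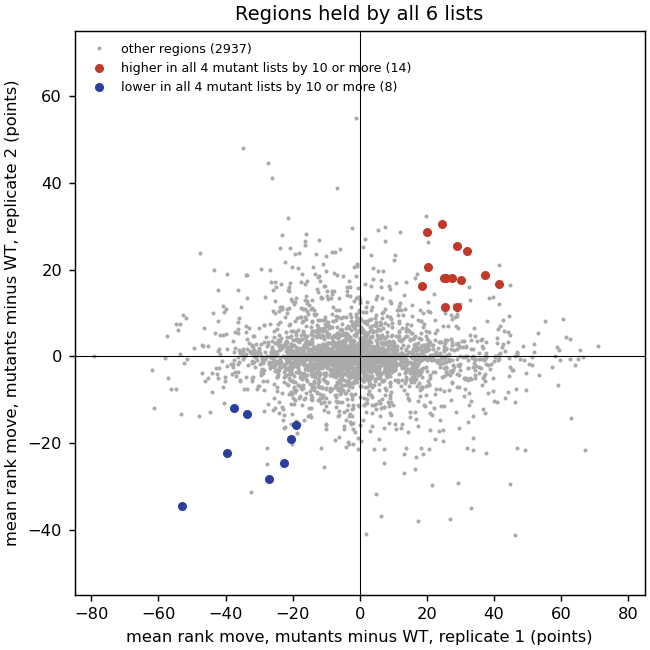
Mean rank move of both mutants against WT at the 2959 regions held by all 6 lists, in percentile points, replicate 1 on the horizontal and replicate 2 on the vertical axis; red points are the 14 regions higher, and blue points the 8 lower, by at least 10 points in all 4 mutant lists. The cloud is wider in replicate 1 (SD 18.0) than in replicate 2 (SD 7.42) and has no slope to speak of (r −0.0605).

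No region passed a test across all of them. In limma, with the rank as a normal score, the replicate number as a block and Benjamini-Hochberg adjustment over the 2959 regions, 0 regions had an adjusted p under 0.05 (0%), and the smallest adjusted p was 0.994. At an unadjusted p under 0.05 there were 57 (1.93%). The lowest 2 were at TCAF1 (−1.24 ± 0.35 SE, mutants minus WT in normal-score units, 2 WT and 4 mutant lists) and at TGFBR2 (1.22 ± 0.35 SE). Both are among the largest moves described next, which rest on the same ranks.

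Regions ranked lower in both mutants in both numbers lay at 8 places, 4 of them within 1 kb of a gene end (50%), against 40.5% of the 2959. The regions at PRMT1, INPP5K and FAM72A are not among the 4 but overlapped promoters. Their midpoints lay over 1 kb from an end of the gene holding them. The first of the 8 covered the divergent promoters of SELENOF, a selenoprotein of the endoplasmic reticulum, and HS2ST1, an enzyme of heparan sulfate (chromosome 1, 86913999 to 86914985). Its percentile rank was 51.6 in WT, 3.07 in 4A and 20.9 in 4D in replicate 1, and 70.7, 49.7 and 47.1 in replicate 2. WT stood highest in both numbers, by at least 21.0 points.

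The CD44 region lay 27.6 kb outside the gene of this hyaluronan receptor of blood cells (chromosome 11, 35111042 to 35112098). WT, 4A and 4D ranked it at 40.4, 7.18 and 19.4 in replicate 1, and 70.3, 50.7 and 33.1 in replicate 2. The −log10 q was 11.2, 4.31 and 3.63, and then 23.1, 12.1 and 6.48. By rank 4A was lowest in replicate 1 and 4D in replicate 2.

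At TCAF1, a gene of a partner of TRP channels (chromosome 7, 143901911 to 143902328), the ranks were 71.8, 21.0 and 16.7 in replicate 1 and 60.3, 9.84 and 41.7 in replicate 2, in the order WT, 4A, 4D. Both mutants were over 50 points lower in replicate 1. The mutants changed order between the numbers.

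The PRMT1 region covered the promoter printed above (chromosome 19, 49676797 to 49677626). PRMT1 is an arginine methyltransferase known to act on RUNX1. WT, 4A and 4D ranked it at 56.9, 25.9 and 20.7 in replicate 1, and 83.5, 72.9 and 67.4 in replicate 2, with WT highest and 4D lowest in both. Its summits lay 76 to 219 bases before the start in the 6 lists.

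The INPP5K promoter region (chromosome 17, 1516656 to 1517138) is inside LOC107984156 by the gene table. INPP5K is an inositol phosphatase. WT, 4A and 4D ranked it at 50.8, 35.7 and 28.2 in replicate 1, and 64.7, 49.0 and 48.7 in replicate 2. The smallest of its 4 moves was −15.2 points.

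The HAUS3 and POLN promoter (chromosome 4, 2241560 to 2242360), of a spindle subunit and a DNA polymerase, had ranks of 45.2, 15.2 and 34.2 in replicate 1 and 39.3, 16.1 and 24.1 in replicate 2. Upstream of HS3ST3B1, another heparan sulfate enzyme (chromosome 17, 14300645 to 14301445), they were 74.5, 23.9 and 50.2, and 79.1, 68.5 and 65.8. The region shared by FAM72A and SRGAP2 (chromosome 1, 206203002 to 206203293) had 82.7, 70.6 and 49.8, and 75.6, 39.7 and 62.6. Both genes have near-identical copies elsewhere, so the placement of its reads is uncertain. Just outside the limit of 10 points were ZRANB1, with a smallest move of −9.99, and LYPD3, with −9.42.

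The 14 regions ranked higher in both mutants in both numbers included 4 within 1 kb of a gene end (28.6%). The first covered the shared promoter of MVK, the mevalonate kinase of sterol synthesis, and MMAB, an enzyme of cobalamin metabolism (chromosome 12, 109573252 to 109573877). WT, 4A and 4D ranked it at 41.7, 64.0 and 69.5 in replicate 1, and 65.5, 83.3 and 83.8 in replicate 2. The summits lay 136 to 172 bases before the MVK start, inside the sequence printed above. All 4 mutant values exceeded the WT value of their number by at least 17.8 points. A higher rank did not mean a higher −log10 q at all 14 regions. In replicate 1 the 4D −log10 q was below that of WT at TGFBR2, TRIM44, GFPT2, WEE1, KANSL2, KYAT3, RNF216, SH3PXD2B, SLC2A12 and THNSL2. At MVK, TMEM19, C11orf91 and RYBP it was above that of WT.

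At TMEM19, a membrane protein gene (chromosome 12, 71686068 to 71686649), the ranks were 37.0, 79.2 and 69.5 in replicate 1 and 46.4, 66.4 and 63.9 in replicate 2. This region lies mostly after the gene's start. The KANSL2 promoter region (chromosome 12, 48681925 to 48682483), of a subunit of the NSL acetyltransferase complex, had 11.1, 47.3 and 24.0, and 30.4, 54.9 and 66.9. It lay within 10 kb of CCNT1, the cyclin of P-TEFb, the single gene of the 6 lists described below with such a region. Over all protein-coding genes, 15 (0.0751%) had a region ranked higher and 14 (0.0701%) a region ranked lower in this way. The KYAT3 and RBMXL1 promoter region (chromosome 1, 88992613 to 88993140) had 18.7, 46.5 and 46.3, and 37.1, 49.6 and 60.8. In each of these the WT list was lowest in both numbers.

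Among regions within genes, that of TGFBR2, the type II receptor of TGF-β (chromosome 3, 30640720 to 30641245), had ranks of 0.318 in WT, 25.6 in 4A and 15.8 in 4D in replicate 1, and 46.0, 67.5 and 65.5 in replicate 2. The WT replicate 1 peak was thus among the last kept. The C11orf91 region (chromosome 11, 33700662 to 33701207), which also overlaps that gene's promoter, had 3.69, 29.4 and 61.2, and 54.9, 70.4 and 73.0. The TRIM44 region (chromosome 11, 35811867 to 35812276) had 21.7, 69.0 and 38.6, and 39.9, 56.0 and 72.3. The mutants changed order between numbers at TRIM44.

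Near WEE1, the kinase that restrains CDK1 (chromosome 11, 9601387 to 9601877, 11.6 kb outside), the ranks were 45.7, 84.5 and 67.6, and 63.4, 84.6 and 77.1, with 4A highest in both numbers. Near GFPT2, an enzyme of hexosamine synthesis (chromosome 5, 180373416 to 180373792, 20.3 kb outside), they were 21.1, 63.8 and 36.4, and 59.6, 90.3 and 79.6, again with 4A highest. Inside RNF216, a ubiquitin ligase gene (chromosome 7, 5643350 to 5643845), they were 45.2, 73.0 and 57.5, and 29.5, 47.3 and 69.3. The other 4, at SH3PXD2B, SLC2A12, THNSL2 and RYBP, had smallest moves of 11.4, 11.3, 10.7 and 10.1 points.

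The column that ranks the peaks decides many of these moves. Ranked by fold enrichment, the smallest move stayed past 10 points at CD44, PRMT1, MVK, C11orf91, WEE1, KYAT3 and RNF216. It fell short at TMEM19 (1.78 points), GFPT2 (4.02), TGFBR2 (4.08), TRIM44 (6.04) and KANSL2 (8.19) among the higher regions. Among the lower ones it fell short at HAUS3 (−5.71), HS3ST3B1 (−6.74), INPP5K (−7.48) and FAM72A (−9.69). The SELENOF and TCAF1 regions were no longer held by all 6 lists.

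**Figure D4:**
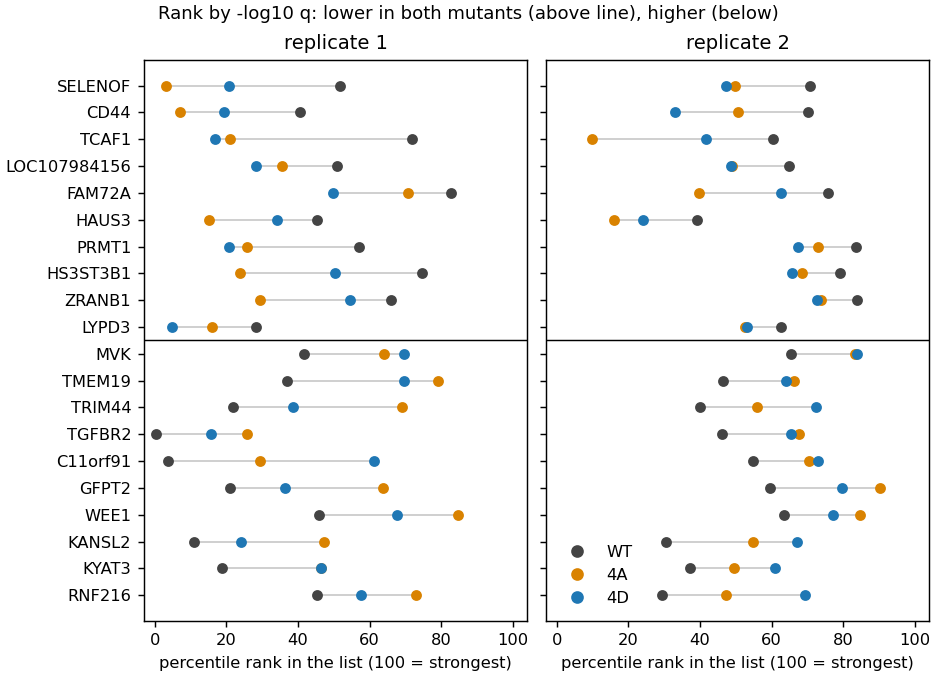
Percentile rank (horizontal axis, 100 is the strongest peak of the list) of the 10 regions with the largest moves in each direction, replicate 1 left and replicate 2 right; black is WT, orange 4A and blue 4D. WT is highest in the upper regions, among them CD44 (40.4 and 70.3), and lowest in the lower ones, among them MVK (41.7 and 65.5); ZRANB1 and LYPD3 lie just under the limit of 10 points.

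Position relative to genes and peak width were not criteria for choosing regions. The merging of overlapping peaks does depend on their coordinates and width, so these readouts are not independent of which lists held a region. The share of summits at gene ends, up to 1 kb away, was 39.1% for WT in replicate 1 (95% Wilson interval 37.8 to 40.4), 33.5% for 4A (32.2 to 34.8) and 35.2% for 4D (33.9 to 36.5). In replicate 2 the shares were 27.5% (26.9 to 28.1), 29.3% (28.7 to 29.9) and 28.6% (28.0 to 29.2). These intervals cover counting error only. The mutants were 4.74 points below WT in replicate 1 and 1.42 points above it in replicate 2, and the mean difference of −1.66 points had a two-sided exact permutation p = 0.556. At one list length for all 6 lists, the replicate 2 difference turned to −0.430 points. Regions held by WT alone lay at gene ends in 42.6% of cases in replicate 1 (370 of 869) and 16.8% in replicate 2 (401 of 2380). Those held by both mutants alone did so in 26.0% (103 of 396) and 34.0% (372 of 1095), so the order of the classes reversed between numbers.

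**Figure D5:**
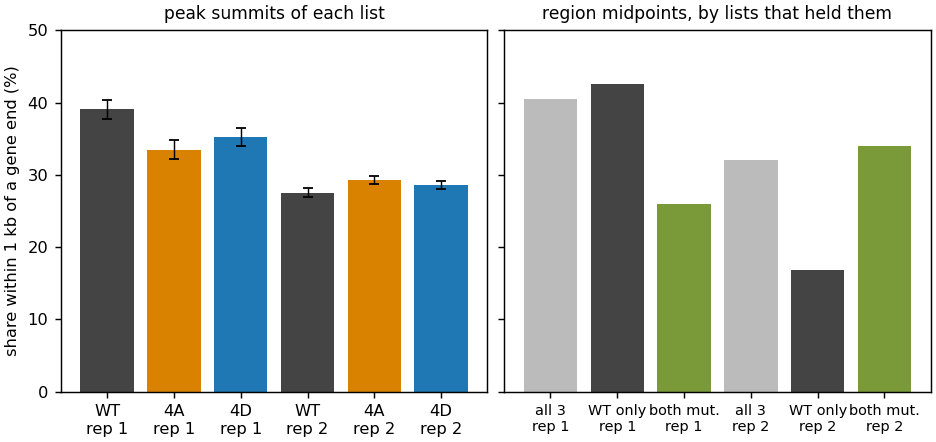
Share lying at most 1 kb from the end of a gene that codes for protein (vertical axis, percent): left, peak summits of each list with 95% Wilson intervals; right, midpoints of regions held by all 3 lists, by WT alone and by both mutants alone. WT is above both mutants in replicate 1 (39.1% against 33.5% and 35.2%) and below them in replicate 2 (27.5% against 29.3% and 28.6%).

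At equal list length the median peak width was lower in both mutants in each number. For WT, 4A and 4D the median width was 309, 304 and 252 bp in replicate 1, and 400, 371 and 335 bp in replicate 2. The mean difference was −39 bp, the lowest of the 9 arrangements (two-sided exact permutation p = 0.222). In the whole lists the mean difference was −11.5 bp in replicate 1 and −12.5 bp in replicate 2, and the 4A median of replicate 1 (285 bp) was above that of WT (280 bp). The median −log10 q of the kept peaks moved with the width: 13.5, 10.3 and 7.60 in replicate 1 and 13.5, 11.8 and 10.2 in replicate 2. Its part in the width was not tested. By chromosome, all 4 mutant lists had a higher share of peaks than WT on 4 of 23 chromosomes and a lower share on 3. Chromosome 14 held 4.81% of 4A replicate 1 peaks, against 2.81% for both WT and 4D in that number and 2.79% to 2.94% in replicate 2.

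Genes were then counted, a gene being held by a list when a region lay within 10 kb of it. Of 19974 protein-coding genes, 613 (3.07%) were held by WT and neither mutant in replicate 1 and 377 (1.89%) in replicate 2, but only NBEAL1 in both (0.00501%). Both mutants and not WT held 321 (1.61%) and 449 (2.25%), and in both numbers 4 genes (0.02%): RCC1, PTCHD1, PPM1H and PTH2R. PPM1H, a phosphatase gene, had a top −log10 q of 8.97 and 14.0 in 4A and 3.85 and 3.97 in 4D, and PTH2R, a hormone receptor gene, had 5.76 and 7.46 in the 4A lists, and 2.48 and 6.60 in those of 4D. In the whole lists WT had weak peaks near PPM1H in both numbers (2.63 and 2.87), near PTH2R in replicate 2 (2.47) and near RCC1 in replicate 2 (2.44). All 3 lines held 3248 genes (16.3%) and 9513 genes (47.6%).

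None of the 177 genes of 6 lists was held by WT alone, or by both mutants alone, in both numbers. CCNT1, described above, was the single list gene near a region that moved the same way by rank. Each list had 2 peaks near CCNT1, and in WT the region counted was the weaker. For WT, 4A and 4D the strongest had −log10 q of 19.0, 10.4 and 7.93 in replicate 1, and 25.9, 31.1 and 16.7 in replicate 2. Of 40 megakaryocyte and platelet genes, RAB27B, a GTPase of platelet granules, was held by WT alone in replicate 1, with a −log10 q of 6.69. In replicate 2 all 3 lines held it, with 20.6 in WT, 28.1 in 4A and 21.6 in 4D. ANKRD26, a gene of inherited thrombocytopenia, was held by both mutants in replicate 1 (9.53 in 4A and 1.49 in 4D), while its WT peak of 3.59 fell below the limit. P2RY1, a platelet ADP receptor, was held by both mutants in replicate 2 (6.47 and 6.01), with a WT peak of 2.98 below the limit. All 3 lines held 14 of the 40 (35.0%) in replicate 1 and 28 (70.0%) in replicate 2, among them ITGA2B and GP1BA in both. Over all genes the shares were 16.3% and 47.6%.

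Of 42 erythroid genes, XPO7 was held by WT alone in replicate 1 (6.31), and ALAS2, the first enzyme of erythroid heme synthesis, in replicate 2. The ALAS2 region had a −log10 q of 4.61, and no mutant list and no replicate 1 list had a peak there. BLVRB, a biliverdin reductase, was held by both mutants in replicate 1, with a WT peak of 3.59 below the limit, and TFRC, the transferrin receptor, in replicate 2. The TFRC peaks were 7.75 in 4A and 3.74 in 4D, with 2.25 in WT below the limit. All 3 lines held 7 of the 42 (16.7%) in replicate 1 and 22 (52.4%) in replicate 2. These shares were near those over all genes, 16.3% and 47.6%.

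Of 42 genes of blood transcription factors, GATA2, ETS1 and STAT5B were held by WT alone in replicate 1. This share of 7.14% stood against 3.07% of all genes. The 3 genes had −log10 q of 6.56, 6.92 and 6.57. All 3 were held by every line in replicate 2. RUNX2 and FOS were held by both mutants in replicate 1, and GFI1 and ETS2 in replicate 2, but WT peaks below the limit lay at RUNX2 (1.66) and ETS2 (4.30). Each pair was 4.76% of the list, against 1.61% of all genes in replicate 1 and 2.25% in replicate 2. GFI1, a repressor of blood stem cells, had 6.32 in 4A and 4.05 in 4D, with no peak in WT or in replicate 1. All 3 lines held 16 of the 42 (38.1%) and 35 (83.3%), RUNX1, CBFB, GATA1 and TAL1 among them in both numbers. The shares over all genes were 16.3% and 47.6%.

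Of 30 RUNX1 targets known from the literature, which share members with the other lists, WT alone held RAB27B, SERPINE2 and PCTP in replicate 1. This share of 10.0% stood against 3.07% of all genes. ANKRD26 and RAB31 were held by both mutants in that number (6.67%, against 1.61% of all genes), with a WT peak of 5.02 below the limit at RAB31. In replicate 2 none was held by WT alone, and GFI1 and PCTP were held by both mutants (6.67%, against 2.25% of all genes). PCTP, a phosphatidylcholine transfer protein of platelets, ran in opposite directions: 7.40 in WT replicate 1 with no mutant peak, and 9.28 in 4A and 3.02 in 4D in replicate 2 with no WT peak. Of 21 genes of G1 control, CDK6 was held by WT alone in replicate 1 (15.4), and by all 3 lines in replicate 2 (30.7, 46.8 and 33.5). Of 26 kinase and phosphatase genes, PTPN11 was held by WT alone in replicate 2 (4.86) and BRAF by both mutants (6.49 and 12.9), where the WT peaks of at most 3.69 fell below the limit.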

How the data were processed

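CUT&RUN libraries were made with an anti-HA antibody from HEL cells, and 6 deposited peak lists were used, 1 per library, so peaks were called per library. Per the submitters' processing notes, the upstream tools included MACS2 2.2.7.1 and Bowtie2 2.4.2 on hg38, beside deepTools 3.5.1, Picard 2.25.6 and cutadapt 3.4. Read filters, and whether the empty vector replicates were pooled as background, are not given in the sources used here. For each peak the authors deposited coordinates with a summit, an integer score, the −log10 p-value and −log10 q-value, and the enrichment over background as a linear fold ratio. These are the authors' values and served to rank, filter or describe peaks of a list. Except at the regions ranked higher, −log10 q values of several lists that stand side by side describe each list and are not compared in size. Read depth is unknown, and the number of samples limits precision.

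Lists were restricted to chromosomes 1 to 22 and X, cut to equal length within a replicate number by −log10 q, and merged where peaks overlapped by 1 bp or more. A region's percentile rank is that of its strongest peak. Coordinates are 1-based. Regions were named by the nearest protein-coding gene of RefSeq's GRCh38.p14 table. Promoter sequences, also from RefSeq, matched 15812 of 19974 protein-coding genes, so gene ends were used in place of start sites. Named were all regions that set both mutants apart in both numbers, the 10 largest moves each way, the 5 strongest each way within a number, and list genes with such regions. The 4 further regions past 10 points, and list genes that stood apart within a number, were named after their values were seen. Some genes that these rules select are not reported here. The members and gene lists were chosen with earlier results of these data known. The labels call the replicates biological. Same-numbered libraries deviated together (correlations 0.439 for WT and 4A, 0.582 for WT and 4D, 0.381 for 4A and 4D, across regions held by all 6 lists), but only 2 numbers exist.

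Python 3.11.15, pandas 2.3.3, numpy 2.4.6, scipy 1.17.1 and matplotlib 3.10.9 were used, with R 4.3.3 and limma 3.58.1 for ranks held by all 6 lists, on a normal-score scale. The fit was tested on simulated data, where it missed the smaller shifts, so the absence of calls does not mean that no region differs. Alternatives changed list length, ranking column, a q filter, the overlap rule, the replicate block, the size of a move and the libraries used.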

Additional observations from a re-analysis of the deposited data

Results flagged for a closer look

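Peaks outside chromosomes 1 to 22 and X entered no comparison. They numbered 19 in WT, 16 in 4A and 21 in 4D in replicate 1, and 83, 51 and 65 in replicate 2, with no count from the empty vector to set beside them. Both mutants differed from WT in opposite directions in the 2 replicate numbers by the position of their peaks, and the difference between numbers was not tested. For summits at gene ends, the share in the mutants minus that in WT was −4.74 percentage points in replicate 1 and 1.42 in replicate 2. In gene bodies the difference was 2.62 and −0.823 points, and between genes 2.12 and −0.598 points.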

How the results depend on the processing

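The limma count was 0 in all 16 settings tried, with a smallest adjusted p of 0.848 to 1, so it gives no region a call to lose. The counts in both numbers depended on the settings. Regions held by WT alone, 8, became 5 with −log10 q of at least 5, 13 by fold, 17 with summit windows, 23 in whole lists, and 35 at one length for all 6 lists. Regions held by both mutants alone, 5, became 3, 8 and 12 in the first 3 of these, and 10 at one length. For these counts, leaving out the replicate block is the same calculation as one length, so it is not a separate check. Of the named regions, none stayed so at one length. Within numbers, WT alone held 1462 (replicate 1) and 4641 (replicate 2) in whole lists, and in replicate 2 1505 with the q filter and 497 at one length, where both mutants alone held 296. Regions ranked higher, 14, became 39 at 5 points, 0 at 20 points and 4 in whole lists. Regions ranked lower, 8, became 43, 1 and 26, and 5 with the q filter, 17 at one length and 13 by fold. Ranks of whole lists of unequal length are not comparable. Of the 20 named moves, 2 of them short of 10 points to begin with, 18 reached 10 points with summit windows, and 7 of the 18 still held by all 6 lists did by fold. The width difference was −11.5 (replicate 1) and −12.5 bp (replicate 2) in whole lists and −75 bp in replicate 2 at one length, and the gene end difference of replicate 2 turned to −0.430. The causes were not tested.

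Leaving out each mutant library, or a number, gave 11 to 2381 regions held by WT alone and 6 to 1095 by both mutants, 33 to 1451 ranked higher and 17 to 1164 lower. Within replicate 1 the ranges were 869 to 1905 and 396 to 1913, and within replicate 2 2380 to 5714 and 1095 to 5531. A condition fewer is then asked of each region. Without a 4D list, the shortest of its number, the other lists were also kept longer, and the highest of these values came from leaving out 4D. The part of each in the counts was not tested. Leaving out a WT library leaves out its number.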
